A study of Homo sapiens with 6 samples.

Results

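Sam68, the protein encoded by KHDRBS1, was depleted in MDA-MB-231 cells, and the study went on to test alternative exons of several genes by RT-PCR. ALCAM, ARHGAP12, DLG1, MAPK9, ASPH, GALNT10 and PLCB4 are 7 of these genes, and their primers are examined here. They were chosen with earlier results of these data known, and 9 further genes with RT-PCR primers or tested exons are described below. The question addressed below is whether the level of each gene as a whole also differed after the depletion. The 7 genes were found in the gene-level table by their symbols, each symbol matching 1 locus, so that they make up 7 of the 74852 loci listed and 7 of the 18849 loci whose normalized read count averaged at least 10 over the 6 libraries. MDA-MB-231 is a human breast cancer line of the triple-negative subtype (TNBC), which lacks the estrogen and progesterone receptors and HER2 amplification. The control group (si-CTRL, 3 libraries) received a non-targeting pool of siRNAs and the other group (si-SAM68, 3 libraries) a pool of 4 siRNAs against KHDRBS1. Both groups were transfected in 2 rounds with the same lipid reagent and, per the labels, harvested 24 h after the second round, while the methods of the study give another harvest time. All libraries come from a single cell line treated with a single pool. The methods name triplicate harvests without saying whether these were independent experiments, so that the p-values measure the spread between these libraries, which may be partly technical. The tested exons had been chosen by the study from exon-level values of the same libraries, and the gene-level values are therefore not independent of that choice.

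Sam68 is an RNA-binding protein of the STAR family that binds A/U-rich RNA and takes part in the choice of alternative exons and of cleavage and polyadenylation sites within introns. A cassette exon is an internal exon that is either included in or skipped from the mRNA, and when its length is a multiple of a codon both forms keep the same reading frame. An alternative terminal exon ends the transcript early, often by reading from an exon into the following intron up to a polyadenylation site, and such a form usually loses the end of the protein. Both kinds of change alter which mRNA is made from a gene and can leave the summed read count of the gene as it was.

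The tested exons fall into both kinds. They are shown here as the study's primers place them on the GENCODE 29 transcripts (GRCh38, coordinates below in this build), with one sequence per event, since the sequence is what separates the isoforms of a gene while the read count sums them. All 20 primers matched transcripts of their own gene without a mismatch and no transcript of another gene. In ARHGAP12 and PLCB4 the tested exon is a cassette exon inside the coding sequence. The ARHGAP12 exon (chr10:31839637-31839711, minus strand) has 75 bases and adds 25 codons, so that the primers span products of 182 bases without it, 257 bases with it and 272 bases when a further exon of 15 bases follows. The PLCB4 exon (chr20:9405313-9405348, plus strand) has 36 bases and adds 12 codons, with products of 124 and 160 bases. The 30 bases around the start of each exon, with the exon in capitals after the end of the exon before it, are the following.
ARHGAP12 exon start: gacactaatgataagGAATCTCCAACTGCC
PLCB4 exon start: aatagcgtcaagaagGCTTCAGATGACCTT

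In ALCAM, MAPK9 and GALNT10 the tested form reads from an exon into the intron after it. The ALCAM extension (chr3:105552586-105553171, plus strand) has 586 bases and is annotated only in ALCAM-208, a transcript without an annotated coding sequence. The MAPK9 extension (chr5:180246028-180247438, minus strand) has 1411 bases in MAPK9-206, which has 242 codons, against 424 codons in MAPK9-207, which is spliced to the next exon. The GALNT10 extension (chr5:154386431-154389581, plus strand) has 3151 bases in GALNT10-203, which has 366 codons, against 603 codons in GALNT10-201. In DLG1 the tested exon (chr3:197078463-197078533, minus strand) has 71 bases, 0 of them annotated as coding, and ends DLG1-204. GENCODE classes DLG1-204 as a target of nonsense-mediated decay, and it has 658 codons, against 926 codons in DLG1-201. The 2 transcripts also differ before the tested exon. In DLG1-204 the exon with the forward primer runs to base 312 from that primer's 5′ end, against base 28 in DLG1-201. The class and the codons of DLG1-204 thus cannot be assigned to the tested exon alone. The windows below run from the end of the upstream exon (lower case) into either the extension or the next exon (capitals), and the first of each pair is the tested form.
ALCAM extension: catgaagaagtcaaaGTGAGTTGTGGAAAA
ALCAM spliced: catgaagaagtcaaaGACTGCATCAAAACA
MAPK9 extension: tccaaggcactgaccGTATCCTTCCCCGCG
MAPK9 spliced: tccaaggcactgaccATATTGATCAGTGGA
GALNT10 extension: gaaatctccttcaagGTGAGCCAGCTCTCC
GALNT10 spliced: gaaatctccttcaagGTGTGGATGTGTGGG
DLG1 terminal exon: acgagagataaagggTTCCTCAGAGCCTTC
All of the extensions open with GT, the bases at which an intron starts. The reverse primers that lie inside these forms match them and not the spliced forms of the same gene, and they are given 5′ to 3′.
ALCAM int16 REV: gactggagtgagcaaaattagca
MAPK9 int19 REV: agaacacagtctggagtgga
GALNT10 int8 REV: gccaagaacggggcgt
DLG1 ex22 R: ttaaagtttgaaggctctgagga

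**Figure D1:**
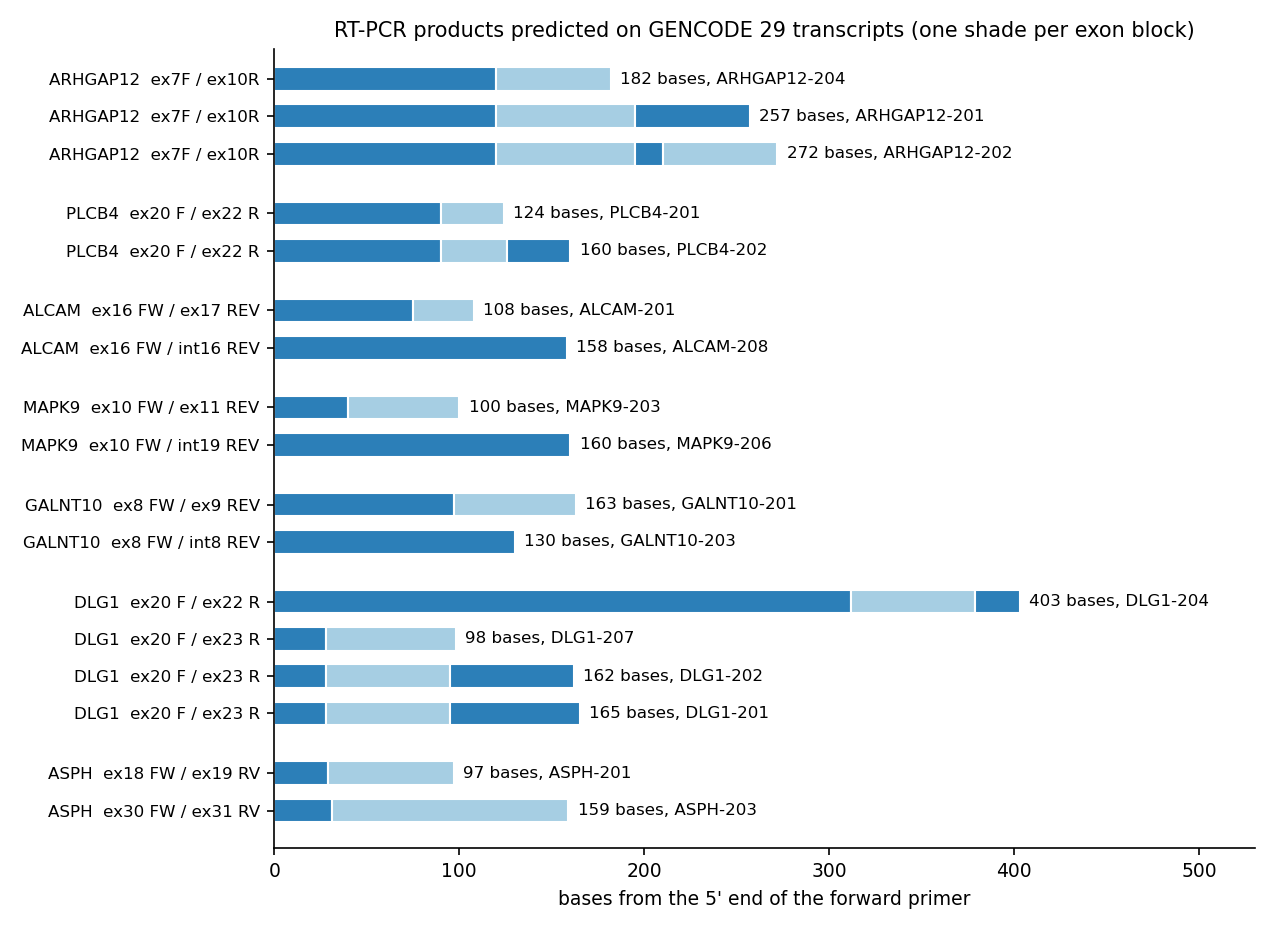
RT-PCR products predicted for each primer pair on GENCODE 29 transcripts, with bases from the 5′ end of the forward primer on the x axis and 1 bar for each product, labelled with its length and a transcript that gives it. Alternating shades mark exon blocks, so that the ARHGAP12 products of 182, 257 and 272 bases differ by the inserted blocks, while the ALCAM (158 bases), MAPK9 (160 bases) and GALNT10 (130 bases) forms that read into the intron are a single block.

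The target of the siRNAs was strongly reduced in each si-SAM68 library. In si-CTRL, the KHDRBS1 locus (GSHG0000334, hg19 chr1:32479295-32526460) had 15660, 14483 and 14737 normalized reads, against 583, 602 and 670 in si-SAM68. The mean thus went from 14960 ± 620 to 618 ± 45.8 (SD, n = 3 in each group), leaving 4.13% of the control level. The libraries held between 52625492 and 82568487 reads on all loci, and the locus annotated for ribosomal RNA took 15.1% of the reads of si-SAM68 replicate 2 and 1.83% to 3.17% of the other libraries. The markers of the mesenchymal line (AXL, CD44, CAV1 and VIM) were present, with means over the 6 libraries from 53425 to 149744 normalized reads, whereas those of receptor-positive, epithelial and blood cells (ESR1, PGR, CDH1, EPCAM and PTPRC) summed to 12.5 to 23.8 in the si-CTRL libraries and 22.3 to 34.0 in the si-SAM68 libraries, PGR being at 0 in every library. Of the mesenchymal markers, CAV1 was the one called (log2 fold change 0.62, limma adjusted p 0.0010).

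Of the 7 genes, ALCAM and ARHGAP12 rose and DLG1, MAPK9 and ASPH fell in si-SAM68 cells, PLCB4 was higher without passing the test and GALNT10 overlapped with its control level. The test was limma on log2(normalized read count + 1) over all 18849 loci, with Benjamini-Hochberg adjustment, and a gene was called at an adjusted p under 0.05. By this rule 5 of 7 genes were called, 2 higher and 3 lower, where 10.7% of all loci tested were called. Of the 9 other genes with RT-PCR primers or tested exons, 0 were called. The libraries of the groups did not overlap for 6 of 7 genes, where this was so for 33.9% of all loci. At the thresholds of the study, a fold change of 1.5 or more with an unadjusted p up to 0.05, 0 of 7 genes were called against 7.67% of all loci, although 6 of 7 had an unadjusted p under 0.05. The log2 fold changes of the 7 genes lay between -0.40 and 0.54, while the middle 90% of all loci lay between -0.65 and 0.60. The median of the 7 genes was -0.0028, beside 0.0050 for all loci. Among the 7146 loci whose mean lay within the range of the 7 genes, 12.6% were called and 39.0% had groups that did not overlap. edgeR and DESeq2 on the reads recovered from the table each called 6 of 7 genes, PLCB4 being the further one. Of all loci, edgeR called 2026 and DESeq2 called 2811, against 2017 in limma. In limma with the replicate block, a term for the replicate number, 3 were called, beside 1697 of all loci. MAPK9 (adjusted p 0.0517) and ASPH (adjusted p 0.0706) were not called there. In edgeR with the block 2 were called, ALCAM and ARHGAP12, beside 1722 of all loci. Without si-SAM68 replicate 2, the library with the high ribosomal share, 2 of 7 were called, ALCAM (0.53) and ARHGAP12 (0.54), beside 808 of all loci in that fit against 2017 with all libraries. There PLCB4 was at 0.34 and GALNT10 at 0.0023. The same 2 genes were called without si-SAM68 replicate 1 or without si-SAM68 replicate 3, beside 923 and 625 of all loci. Without si-CTRL replicate 1, 2 or 3, the genes called were 6, 4 and 3 of 7. Beside these stood 2839, 1592 and 1103 of all loci. Whether the ribosomal share had a part in the loss of calls was not tested. In RNA from whole cultures, a difference in the level per cell and one in the number of cells that carry the mRNA cannot be told apart.

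**Figure D2:**
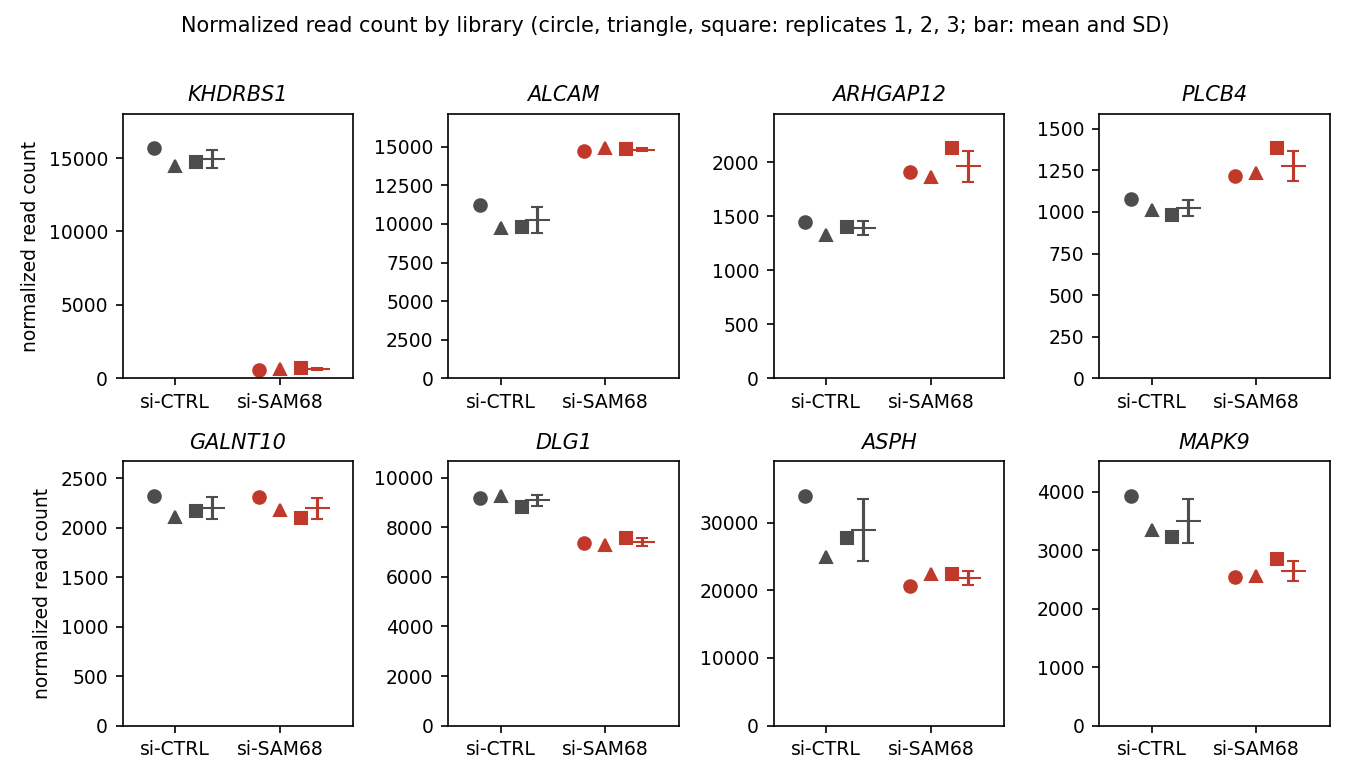
Normalized read count (y axis, from 0) of KHDRBS1 and the 7 genes in each library, with circles, triangles and squares for replicates 1, 2 and 3 and a bar for the mean and SD of each group. The si-SAM68 libraries lie above all si-CTRL libraries for ALCAM, ARHGAP12 and PLCB4, below them for DLG1, ASPH and MAPK9, and among them for GALNT10.

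**Figure D3:**
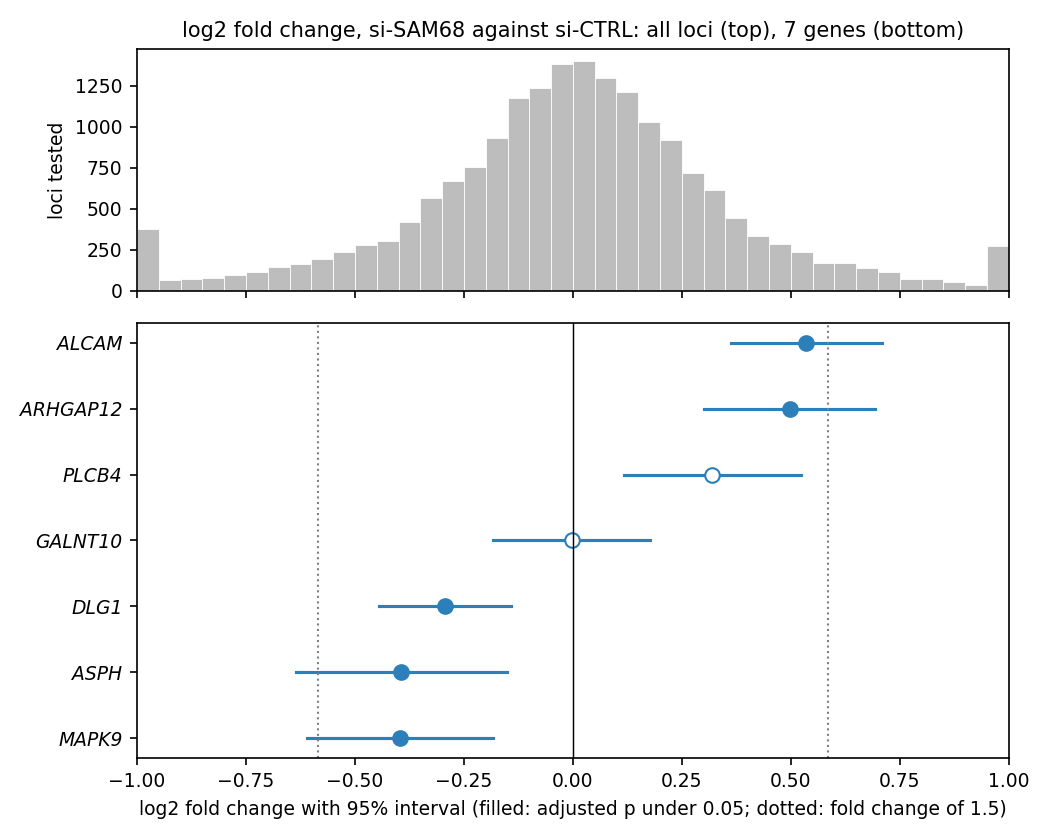
Distribution of log2 fold changes over the 18849 loci tested (top, y axis in loci, with loci beyond 1 in either direction added to the outermost bars) and the log2 fold change of each of the 7 genes with its 95% interval (bottom). Filled points have an adjusted p under 0.05 in limma, and dotted lines mark a fold change of 1.5, which no gene reached.

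ALCAM encodes CD166, a cell adhesion molecule of the immunoglobulin superfamily that binds itself and the lymphocyte receptor CD6. Its locus (GSHG0021007, hg19 chr3:105085557-105295756) had 11217, 9770 and 9776 normalized reads in si-CTRL and 14733, 14907 and 14845 in si-SAM68. Every si-SAM68 library was thus above every si-CTRL library, and the si-SAM68 libraries were close to one another (CV 0.596%). Counting error alone was 1.06% at the lowest read count of ALCAM among the 6 libraries. A CV this small over 3 libraries is thus no measure of how far the gene's level varies. The mean rose from 10254 ± 834 to 14828 ± 88.3 (SD, n = 3), a log2 fold change of 0.54 (SE 0.078, 95% interval 0.36 to 0.71, limma adjusted p 0.0033), or 1.45-fold. This was higher than 93.8% of all loci. Its close paralog BCAM, a receptor for laminin, was at 0.17 (adjusted p 0.335), and MCAM was not analysed here. In reads per kb of exons, ALCAM made up 76.2%, 75.4% and 75.2% of the sum of ALCAM and BCAM in si-CTRL and 77.2%, 80.7% and 81.7% in si-SAM68. Of its binding partners, CD6 was listed at 0 in all libraries, and L1CAM, another adhesion molecule of the immunoglobulin superfamily, rose by 0.39 (SE 0.10, limma adjusted p 0.040).

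ARHGAP12 encodes a GTPase-activating protein for small GTPases, mainly Rac1, with an SH3 domain, WW domains and a PH domain. Its locus (GSHG0003980, hg19 chr10:32094326-32217804) had 1445, 1321 and 1401 normalized reads in si-CTRL and 1904, 1859 and 2127 in si-SAM68. All si-SAM68 libraries were above all si-CTRL libraries. The mean rose from 1389 ± 62.8 to 1963 ± 143 (SD, n = 3), a log2 fold change of 0.50 (SE 0.088, 95% interval 0.30 to 0.69, limma adjusted p 0.0081), or 1.41-fold. None of its tested paralogs was called: ARHGAP9, which was low at 70.6 ± 9.26 in si-CTRL, was at -0.57 (adjusted p 0.176), and the main ARHGAP27 locus at 0.07 (adjusted p 0.740). A second ARHGAP27 locus, with a mean of only 14.1 normalized reads over the 6 libraries, was at -0.50 (adjusted p 0.482). The share of ARHGAP12 in the summed reads per kb of this group was 81.1% to 81.9% in si-CTRL and 85.5% to 89.2% in si-SAM68. Among the GTPases themselves, RAC1, RAC2, RAC3, CDC42 and RHOA, 0 of 5 were called, with log2 fold changes between -0.14 and 0.15.

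PLCB4 encodes a phospholipase C that is activated by Gq-class G proteins and releases the second messengers inositol trisphosphate and diacylglycerol. Its locus (GSHG0018562, hg19 chr20:9049701-9461460) had 1077, 1010 and 981 normalized reads in si-CTRL and 1217, 1234 and 1383 in si-SAM68. The groups did not overlap, although the gap between them was smaller than the range of the si-SAM68 libraries. The mean was 1023 ± 49.4 in si-CTRL and 1278 ± 91.2 in si-SAM68 (SD, n = 3), and the log2 fold change of 0.32 (SE 0.091, 95% interval 0.12 to 0.52) had a limma adjusted p of 0.052, just short of the threshold. It passed in edgeR (adjusted p 0.043) and DESeq2 (adjusted p 0.020), and in limma without si-CTRL replicate 1 (0.36, adjusted p 0.018). It did not pass with the replicate block in limma (adjusted p 0.0813) or edgeR (adjusted p 0.073), nor in limma without any other single library (adjusted p 0.0896 to 0.195). Of the other members of its family, PLCB1 and PLCB2 were near 0 and PLCB3 was at -0.14 (adjusted p 0.346), so that the share of PLCB4 in the summed reads per kb of the family was 12.6% to 13.7% in si-CTRL and 16.0% to 19.4% in si-SAM68. Of 6 tested genes that act directly before or after it, the G protein subunits GNAQ (-0.30, SE 0.081, limma adjusted p 0.041) and GNA15 (-0.52, SE 0.14, limma adjusted p 0.046) fell, while GNA11 and the receptors for inositol trisphosphate ITPR1, ITPR2 and ITPR3 were not called. Among all loci tested, 10.7% were called in limma. With the replicate block the adjusted p was 0.0615 for GNAQ and 0.0636 for GNA15.

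GALNT10 encodes one of the Golgi transferases that start mucin-type O-glycosylation by adding N-acetylgalactosamine to serine or threonine. Its locus (GSHG0024393, hg19 chr5:153570295-153800541) had 2321, 2107 and 2169 normalized reads in si-CTRL and 2305, 2177 and 2101 in si-SAM68. The groups overlapped throughout. The means were 2199 ± 110.2 and 2195 ± 103 (SD, n = 3), and the log2 fold change was -0.0028 with a 95% interval from -0.18 to 0.18 (limma adjusted p 0.988). The rest of the family moved in both directions: of 14 tested paralogs 5 were called, GALNT5 (0.57, adjusted p 0.047) and GALNT7 (0.37, adjusted p 0.015) being higher and GALNT18 (-0.58, adjusted p 0.013), GALNT16 (-0.46, adjusted p 0.022) and GALNT14 (-0.42, adjusted p 0.041) lower in limma, with a median of 0.07 over the 14. Beside this count, 10.7% of all loci tested were called in limma. GALNT5 was not called by edgeR (adjusted p 0.052) or with the replicate block (adjusted p 0.0745). GALNT10 itself made up 3.49% to 3.60% of the summed reads per kb of the family in si-CTRL and 3.20% to 3.45% in si-SAM68. The loci of GALNT4 and GALNT8 each join the paralog with another gene (POC1B and NDUFA9), whose reads cannot be told apart. Without these 2 loci, an alternative chosen after seeing the data, the share was 4.29% to 4.43% in si-CTRL and 3.97% to 4.26% in si-SAM68, and 5 of 12 paralogs were called, with a median of -0.02. C1GALT1, which extends the glycan that these enzymes start, and its chaperone C1GALT1C1 were not called, at 0.28 and 0.10.

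DLG1 encodes a scaffold protein with PDZ domains that belongs, with SCRIB and the LLGL proteins, to the Scribble complex of cell polarity. Its locus (GSHG0022368, hg19 chr3:196769431-197026143) had 9163, 9260 and 8819 normalized reads in si-CTRL and 7382, 7263 and 7576 in si-SAM68. This was the tightest of the 7 genes in si-CTRL, with a CV of 2.55%, and the groups were far apart relative to that spread. The mean fell from 9081 ± 231.6 to 7407 ± 158 (SD, n = 3), a log2 fold change of -0.29 (SE 0.068, 95% interval -0.45 to -0.14, limma adjusted p 0.025). The call was lost without si-CTRL replicate 2 (-0.28, adjusted p 0.0785) or 3 (-0.31, adjusted p 0.0597) and without si-SAM68 replicate 1 (-0.29, adjusted p 0.0743), 2 (-0.28, adjusted p 0.125) or 3 (-0.31, adjusted p 0.0792). Of the paralogs DLG2, DLG3, DLG4 and DLG5 0 of 4 passed limma's threshold, DLG4 coming nearest (-0.28, adjusted p 0.063), and the share of DLG1 in the summed reads per kb of the 5 genes overlapped between the groups. Of 8 tested polarity partners LLGL2 rose (0.62, SE 0.14, limma adjusted p 0.024) and was the only one past the study's thresholds, and CASK, a scaffold that pairs with DLG1 and the LIN7 proteins, fell (-0.38, SE 0.10, limma adjusted p 0.042). Limma called 10.7% of all loci tested. With the replicate block, the adjusted p was 0.051 for LLGL2 and 0.058 for CASK. SCRIB and LLGL1 were at 0.04 and 0.06.

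MAPK9 encodes JNK2, a stress-activated kinase that phosphorylates JUN. Its locus (GSHG0025342, hg19 chr5:179660594-179719071) had 3926, 3337 and 3219 normalized reads in si-CTRL and 2535, 2564 and 2842 in si-SAM68. The groups did not overlap, and si-CTRL replicate 1 was the highest library. The mean fell from 3494 ± 379 to 2647 ± 169.6 (SD, n = 3), a log2 fold change of -0.40 (SE 0.096, 95% interval -0.61 to -0.18, limma adjusted p 0.029). With the replicate block the adjusted p was 0.0517, and without si-SAM68 replicate 1, 2 or 3 it was 0.0999, 0.113 and 0.0696 at log2 fold changes of -0.37, -0.37 and -0.45. MAPK8, which encodes JNK1, was at 0.08 (adjusted p 0.574) and MAPK10 was listed at 0, so that MAPK9 made up 61.7%, 55.4% and 53.8% of the summed reads per kb of the JNK genes in si-CTRL and 49.0%, 47.7% and 49.6% in si-SAM68. Of 18 tested genes of the JNK pathway 2 were called: the upstream kinase MAP3K1 rose (0.49, SE 0.099, limma adjusted p 0.015) and the phosphatase DUSP1, which inactivates JNK and p38, fell (-0.56, SE 0.083, limma adjusted p 0.0036). The median of the 18 was -0.03. Of all loci tested, 10.7% were called. The kinases directly above JNK, MAP2K4 and MAP2K7, were at 0.30 and -0.07, and JUN, JUND and ATF2, its substrates, were between -0.02 and 0.14, none of them called.

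ASPH has the highest read count of the 7 genes. Its long forms encode aspartate beta-hydroxylase, an enzyme of the endoplasmic reticulum that hydroxylates EGF-like domains, and its short forms, which end early, encode junctin and junctate, membrane proteins without the catalytic domain that take part in calcium handling. The study tested both ends: the primers for the long end give a product of 159 bases on ASPH-203, which has 758 codons, and those for the short end a product of 97 bases on 9 transcripts, of which ASPH-201 has 313 codons. Its locus (GSHG0029605, hg19 chr8:62413115-62627199) had 33929, 24924 and 27771 normalized reads in si-CTRL and 20611, 22461 and 22356 in si-SAM68. The groups did not overlap, but si-CTRL varied more than in any other of the 7 genes, with a CV of 15.9% against 4.76% in si-SAM68. The mean fell from 28874 ± 4603 to 21809 ± 1039 (SD, n = 3), a log2 fold change of -0.39 (SE 0.11, 95% interval -0.64 to -0.15, limma adjusted p 0.046). With the replicate block the adjusted p was 0.0706, and the call was also lost without si-CTRL replicate 3 (-0.42, adjusted p 0.0871) and without si-SAM68 replicate 1 (-0.35, adjusted p 0.149), 2 (-0.42, adjusted p 0.110) or 3 (-0.41, adjusted p 0.137). Without si-CTRL replicate 1, the highest library, the log2 fold change was -0.27 (adjusted p 0.023). Of the paralogs ASPHD1 and ASPHD2, the latter fell (-0.37, SE 0.096, limma adjusted p 0.039; 0.061 with the replicate block). Triadin (TRDN) and the calsequestrins CASQ1 and CASQ2, the muscle partners of junctin, were listed at 0 in all libraries, and of the tested calcium genes RYR2, STIM1 and ORAI1 none was called, with log2 fold changes between -0.21 and 0.24.

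**Figure D4:**
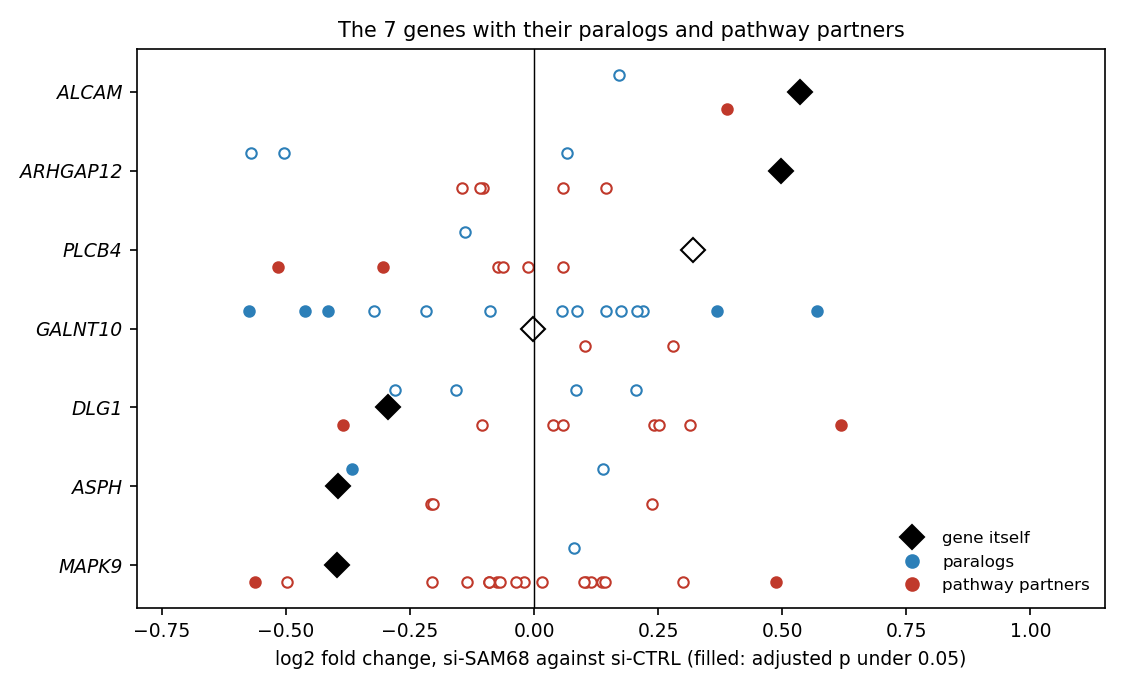
Log2 fold change (x axis) of each of the 7 genes (diamonds), its tested paralogs (blue) and its tested pathway partners (red), filled where the limma adjusted p was under 0.05. The filled points of the GALNT10 paralogs lie on both sides of 0, from -0.58 to 0.57, while GALNT10 lies at 0.

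Over all 7 genes, the list of 35 paralogs had 25 tested genes on 26 loci, of which 6 were called (2 higher, 4 lower), with a median of 0.06. The list of 51 pathway partners had 43 tested, of which 7 were called (3 higher, 4 lower), with a median of -0.01, and this count was 3 with the replicate block. Both counts stand beside 10.7% of all loci. Loss of a call in a list when a single library was left out was common, only DUSP1 among the 13 called genes staying called in all 6 such fits.

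The study also gave RT-PCR primers or tested exons for NOL7, UGGT2, SP100, TBC1D23, POLR1B, GULP1, KTN1-AS1, ZBTB1 and CD44. Of these 9 genes 0 were called in limma, edgeR or DESeq2, with log2 fold changes from -0.14 (UGGT2) to 0.23 (SP100) and 1 gene, SP100, at an unadjusted p under 0.05. The groups did not overlap for SP100 and POLR1B. CD44, a cell surface receptor for hyaluronan, varied most, with 68397, 43246 and 50680 normalized reads in si-CTRL and 58743, 63830 and 57327 in si-SAM68. It was called without si-CTRL replicate 1 (0.36, adjusted p 0.013). The difference between these 9 genes and the 7 genes was not tested.

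The 7 genes were also put in order of level, in normalized reads per kb of annotated exons (the union of GENCODE exons of the gene). The order of the means differed between the groups, but no pair of genes was clearly ordered in opposite ways. Of the pairs that changed places, ASPH and ALCAM overlapped in si-CTRL, and MAPK9 and ARHGAP12 in si-SAM68. In si-CTRL the order was ASPH (1440 ± 230 reads per kb), ALCAM (1428 ± 116), DLG1 (825 ± 21.1), MAPK9 (390.1 ± 42.3), ARHGAP12 (234 ± 10.6), GALNT10 (209.5 ± 10.5) and PLCB4 (148 ± 7.16; SD, n = 3). The libraries of ASPH and ALCAM overlapped, while those of all other neighbours did not. In si-SAM68 ALCAM (2065 ± 12.3 reads per kb) stood clear of ASPH (1088 ± 51.8), and ARHGAP12 (331 ± 24.2) overlapped with MAPK9 (296 ± 18.9), as did GALNT10 (209 ± 9.81) with PLCB4 (185 ± 13.2). The reads were counted on another annotation, and an isoform that ends early has fewer exonic bases than the union, so that these levels are approximate.

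Reads of overlapping loci could enter a gene's count, since whether strand was used in counting is not given. For ALCAM, ARHGAP12, MAPK9, ASPH and PLCB4 no overlapping locus reached the minimum mean. DLG1-AS1, an antisense transcript at the start of DLG1, had a mean of 111.6 normalized reads, 1.35% of that of DLG1 (log2 fold change 0.45, adjusted p 0.102), and an unnamed locus at the other end of DLG1 had 67.7 (0.08, adjusted p 0.857). Within GALNT10, an unnamed locus had a mean of 253 (11.5% of GALNT10; log2 fold change 0.29, adjusted p 0.214) and SAP30L-AS1 had 32.6.

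**Figure D5:**
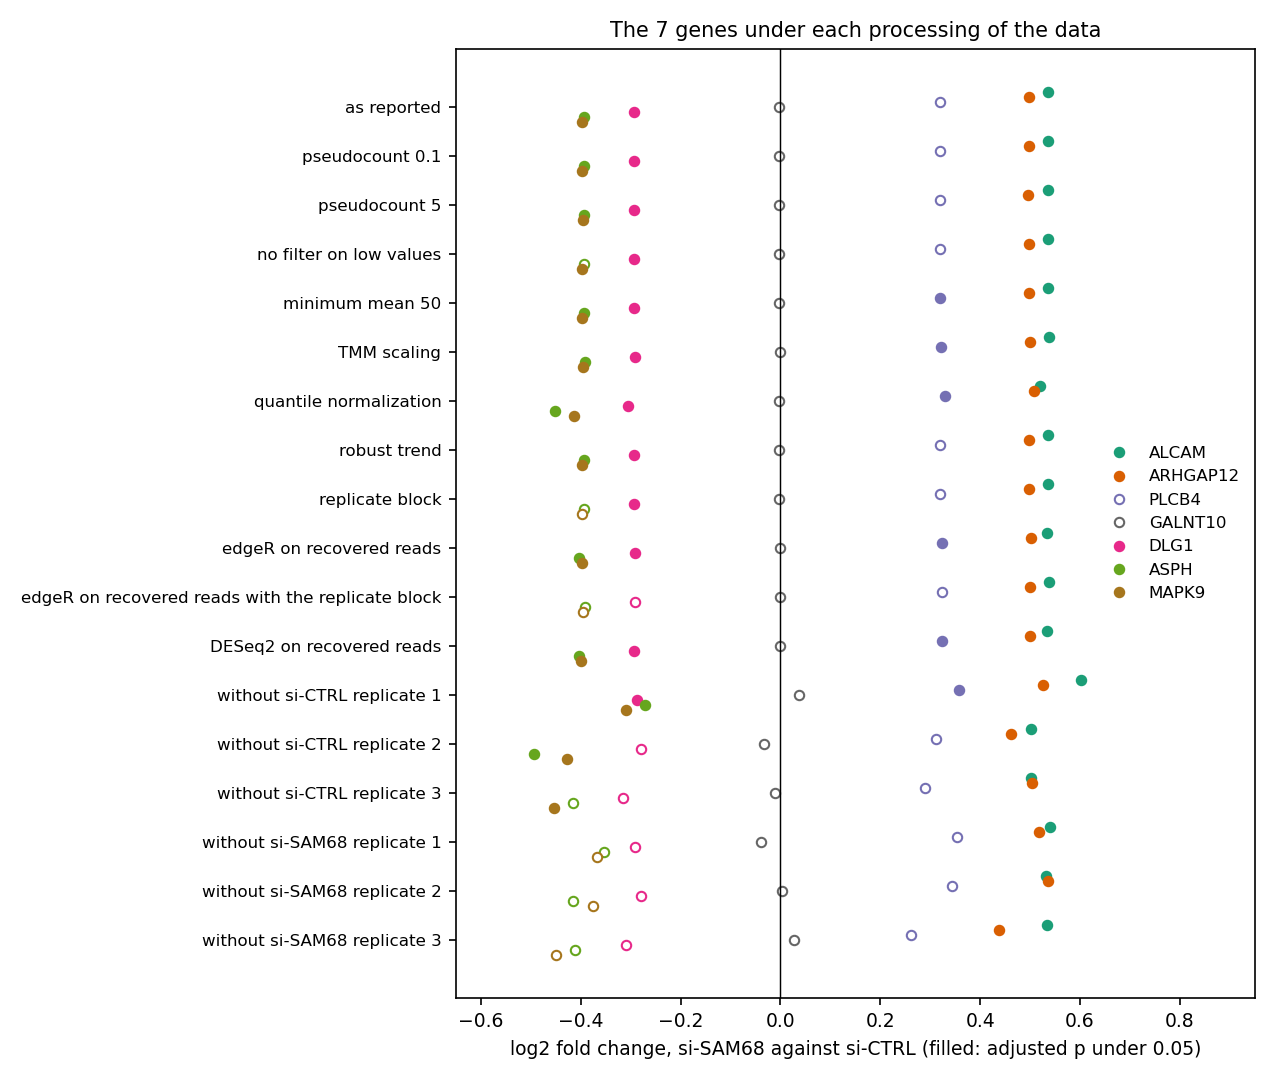
Log2 fold change (x axis) of the 7 genes as reported and under each of the 17 alternatives (y axis), filled where the adjusted p was under 0.05. ALCAM and ARHGAP12 stay filled in every row, GALNT10 is unfilled near 0 in every row, and the other genes change between filled and unfilled without crossing 0.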

How the data were processed

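RNA of 3 si-CTRL and 3 si-SAM68 libraries of MDA-MB-231, selected for polyadenylated transcripts, was sequenced as single-end reads from a stranded kit per the labels, which also give the groups and replicate numbers. The authors deposited a signal for each locus and library, the reads counted on the FAST DB locus (hg19) divided by a DESeq2 size factor. The submitters' processing notes name STAR 2.4.0, FastQC, Picard, SAMtools and DESeq2. The counting program and its strand setting are not given in the sources used here. The table has 0 columns that belong to no sample.

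Within a library, each of the values (100%) was a whole multiple of a single step (tolerance 0.01 reads), which gave back the reads behind it, from 862 to 29212 per library for the 7 genes (a Poisson error of at most 3.41%). No pair of libraries of a group agreed within sampling noise. Differences were tested with limma 3.58.1 (R 4.3.3; lmFit, eBayes with trend) after adding a pseudocount of 1 and taking log2, in the 18849 loci whose values averaged 10 or more, with Benjamini-Hochberg adjustment over all of them and no block. Fold changes are on this scale. A two-sided exact permutation test of 3 against 3 libraries cannot give a p below 0.1, which it gave for 6 of 7 genes, against 0.9 for GALNT10. Deviations from the group means correlated at 0.105, 0.231 and 0.125 between libraries of the same number and at -0.125 to 0.007 otherwise. The numbers may thus pair the libraries, which these weak correlations over 3 libraries in each group cannot settle. The replicate block was therefore fitted as an alternative.

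Further alternatives changed the pseudocount (0.1 or 5), the minimum mean (none or 50), the scaling (TMM or quantile normalization) and the trend (robust), left out each library (the spread being pooled over those left), or used edgeR 4.0.16 (quasi-likelihood test, with and without the block) or DESeq2 1.42.0 on the recovered reads. The programs were tested on simulated data. Primers come from the study's supplement and were matched to GENCODE 29 transcripts (GRCh38), whose coordinates were not mixed with those of the table. The 7 genes and the lists of paralogs, pathway partners and markers were chosen with earlier results of these data known. Genes named from these lists are those called without overlap of the groups, at most 4 per gene and list, and all genes of the RT-PCR list except for an item that is not reported here. Further paralogs and partners, such as DLG4 or MAPK8, were named after their values were seen. Only gene-level values were analysed here.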

Additional observations from a re-analysis of the deposited data

How the results depend on the processing

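The log2 fold changes of KHDRBS1, ALCAM (0.50 to 0.60) and ARHGAP12 (0.44 to 0.54) kept their direction and their call in all 17 alternatives. The range over the fits without a single library was -0.31 to -0.28 for DLG1, -0.45 to -0.31 for MAPK9, -0.49 to -0.27 for ASPH, 0.26 to 0.36 for PLCB4 and -0.039 to 0.037 for GALNT10, whose sign turned there. MAPK9 was not called with the replicate block in limma (-0.40) or edgeR (-0.39), ASPH in neither (-0.39 in both) nor without a filter on low values (-0.39), and DLG1 not in edgeR with the block (-0.29), and PLCB4, called by edgeR, not in edgeR with the block (0.32), while the block changed no other call of the 7 genes or KHDRBS1. PLCB4 was called at a minimum mean of 50 (0.32), with TMM scaling (0.32), quantile normalization (0.33), edgeR (0.32) and DESeq2 (0.32). Of the 7 genes 3 were called with the block in limma, 2 in edgeR with the block, and 2 to 6 without a single library. The paralogs called were 3 without a filter and 0 to 7 without a single library. The partners called were 3 without a filter, 3 with the block in limma or edgeR, and 1 to 9 without a single library. The other RT-PCR genes called were 0 to 1. Over all loci, 625 to 2839 were called without a single library, and at the study's thresholds 2240 without a filter and 1301 to 1831 without a single library. The cause of these differences was not tested. The fits that leave out a library also hold fewer libraries. Over all loci, the calls rose from 2017 to 2839 without si-CTRL replicate 1 and fell without any other single library. The median log2 fold change of all loci was at most 0.0099 under every alternative. The precision of all values rests on 3 libraries in each group, and counting error alone was at most 3.41% per library for the 7 genes.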

Other observations

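By Pearson's r over the 6 libraries, on log2(normalized read count + 1) and among 12927 named loci with a mean of at least 50, the loci most like each gene were FKBP7 and ADAM17 for ALCAM (0.997 for both), P4HA1 and LYRM5 for ARHGAP12 (0.994 for both), KBTBD11 and SLC16A6 for DLG1 (0.998 for both), EIF4G2 (0.994) and GARS (0.993) for MAPK9, SOCS2 (0.999) and PLEK2 (0.998) for ASPH, ATP6AP1 (0.992) and TRAIP (0.985) for GALNT10, and YWHAB (0.999) and BORA (0.997) for PLCB4. ADAM17 is a protease that sheds surface proteins, and it had a mean of 1616 normalized reads in si-CTRL and 2352 in si-SAM68. Over 6 libraries in 2 groups such values are common, between 140 (GALNT10) and 874 (ASPH) loci having an r of at least 0.9, and they are given as a description.

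Sam68 binds short A/U-rich motifs, here searched as the letters TAAA and TTAA on the transcript strand, overlapping matches counted separately. Neither occurred in the tested cassette exons of ARHGAP12 and PLCB4. Among the internal exons of 75 bases in GENCODE protein-coding transcripts 21.2% held TAAA and 18.8% TTAA, and among those of 36 bases 8.0% and 4.8%. In the first 70 bases of the alternative ends, TTAA occurred once in MAPK9, in DLG1 and in the short end of ASPH, which also held TAAA. Neither occurred in ALCAM or GALNT10. Among last exons of protein-coding transcripts with at least 70 bases, 17.6% held TAAA and 13.4% TTAA in the same window. These are matches of letters in these windows only.

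The sequences opposite guide positions 2 to 8 of the 4 siRNAs were counted in the longest annotated 3′UTR of each gene. At least 1 of them occurred in 5 of 7 genes and in 29% of 13259 tested genes. These shares cannot be compared directly, since a longer 3′UTR holds more matches and the tested genes were not matched for length. The 3′UTRs of the 7 genes had 2063 (DLG1) to 5779 (ASPH) bases. DLG1 had 1 match to siRNA 1, whose site is GACGTTA. MAPK9 had 2 matches to siRNA 2, whose site is TGCTGAT, and ASPH and GALNT10 had 1 each. GALNT10 also had 1 match to siRNA 4 and PLCB4 1 to siRNA 3, and ALCAM and ARHGAP12 had none. The part of these matches in the differences between the groups was not tested.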
